A study of Homo sapiens with 6 samples.

Results

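The genes described here encode the machinery that makes, loads and executes small RNAs in human cells. They are the Argonautes AGO1, AGO2, AGO3 and AGO4, the nucleases DROSHA and DICER1, the DICER1 partner TARBP2, the export receptor XPO5 and the Argonaute partners TNRC6A and TNRC6B. These 10 genes were taken by name from 60660 annotated genes, and all 10 were among the 15155 genes with enough counts to be tested. Expression was measured by RNA-sequencing of poly-A RNA from 12Z cells, an established epithelial line derived from endometriosis. In the control group, 3 cultures were transfected with a non-targeting siRNA oligo, and in the knockdown group 3 were transfected with the siRNA LINC01133a at 10 nM. LINC01133 is a long non-coding RNA. All 6 libraries were taken 72 h after transfection with the same lipid reagent, Lipofectamine RNAiMAX. Both groups thus carried a synthetic siRNA, and cells without one were not analysed here. The knockdown was transient and rested on 1 cell line and, in these libraries, on 1 siRNA.

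MicroRNAs are cut from long primary transcripts in the nucleus by DROSHA and its partner DGCR8, a complex called the microprocessor. XPO5 carries the resulting hairpins to the cytoplasm, where DICER1, helped by TARBP2 or PRKRA, cuts them to short duplexes. One strand is then loaded into an Argonaute protein with the help of heat shock chaperones, and TNRC6 proteins (also called GW182) link the Argonaute to enzymes that shorten and decap the mRNA. A synthetic siRNA enters this pathway after the dicing step, and among human Argonautes AGO2 is known as the one with strong slicing activity.

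The siRNA given to the knockdown cells is shown because it is the substrate that the loading step received in that group. Capitals mark the seed, positions 2 to 8 from the 5′ end of each siRNA strand. The guide strand is antisense to LINC01133.
LINC01133a guide strand: uCCAUUCUcagguaacuucaa
LINC01133a passenger strand: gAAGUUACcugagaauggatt
LINC01133 target: gaagttacctgagaatgga
The target lies at chr1:159976669-159976687 (GRCh38, plus strand), within LINC01133, where it falls in exon 2 or exon 3 of 3 of the 5 annotated transcripts. The others do not contain it. Among the mature human miRNAs of the RefSeq table that were covered, none shared either seed. The search did not cover every chromosome, so a shared seed elsewhere was not excluded.

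The knockdown was read first from its target. Normalized LINC01133 counts were 813, 818 and 837 among controls and 130, 131 and 138 after knockdown. The groups were far apart, with 16.1% of the control level left (log2 fold change -2.63, SE 0.070, adjusted p = 3.45e-11 with edgeR's quasi-likelihood test). Depth ranged from 27742562 to 37551194 read pairs on genes per library. Control replicate 2 stood apart from the other controls: chi-square per gene was 11.9 and 13.1 in its pairs with controls 1 and 3, and between 2.20 and 3.75 in the other pairs within a group. Fold changes without this library are therefore given for each of the 10 genes. The cells had the keratins of an epithelium, with at least 33923 counts of KRT18 and 57471 of KRT8 in each library, but also at least 31838 counts of the mesenchymal filament VIM, and only 9 to 26 counts of the epithelial adhesion gene EPCAM. Of 6 epithelial markers 5 fell, among them KRT8 (log2 fold change -0.63), KRT19 (-0.88) and the cadherin CDH1 (-2.02), against 25.0% of all genes tested. In the paper's own follow-up, the loss of CDH1 was reproduced but the reduction of KRT7 and KRT19 was not. Of 5 mesenchymal markers 4 fell, among them VIM (-0.43) and CDH2 (-1.16), and the peptidase gene MME rose (0.82). The endothelial PECAM1 and CLDN5 and the leukocyte CD68 and CD3E had at most 3 counts in any library, and VWF and PTPRC had 16 to 30. Summed over each list, the level per length (TPM, counts divided by the length of all annotated exons and scaled to the same total in each library) was 6694 to 7128 TPM in control and 4311 to 4432 TPM in knockdown libraries for the epithelial, 1563 to 1690 TPM and 1084 to 1190 TPM for the mesenchymal, and at most 0.414 TPM for the endothelial and 0.318 TPM for the leukocyte markers. The part of these markers in the results on RNA silencing genes was not tested.

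Across all genes, 48.3% had an adjusted p under 0.05, 23.3% higher and 25.0% lower in the knockdown. Against this background, 6 of the 10 RNA silencing genes passed the test. AGO1, AGO4, DICER1, DROSHA and TARBP2 rose and XPO5 fell, while AGO2, AGO3, TNRC6A and TNRC6B did not pass. The changes were small: a differentially expressed (DE) gene, defined by a fold change over 1.5 together with an adjusted p under 0.05, made up 11.7% of all genes, 5.30% higher and 6.43% lower, and 0 of the 10 met both cutoffs. An unadjusted p under 0.05 was found for 6 of them with edgeR, an adjusted p under 0.05 for 6 with edgeR and 5 with DESeq2, and neither tool called any of them DE. The median log2 fold change was 0.08 over the 10 genes and 0.00 over all genes tested, where the median size of a change in either direction was 0.21. In 57.3% of all genes the groups did not overlap, 28.3% with the knockdown above and 29.0% with the knockdown below. Among the RNA silencing genes this held for 5, with AGO4, DICER1, DROSHA and TARBP2 above and XPO5 below the controls.

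**Figure D1:**
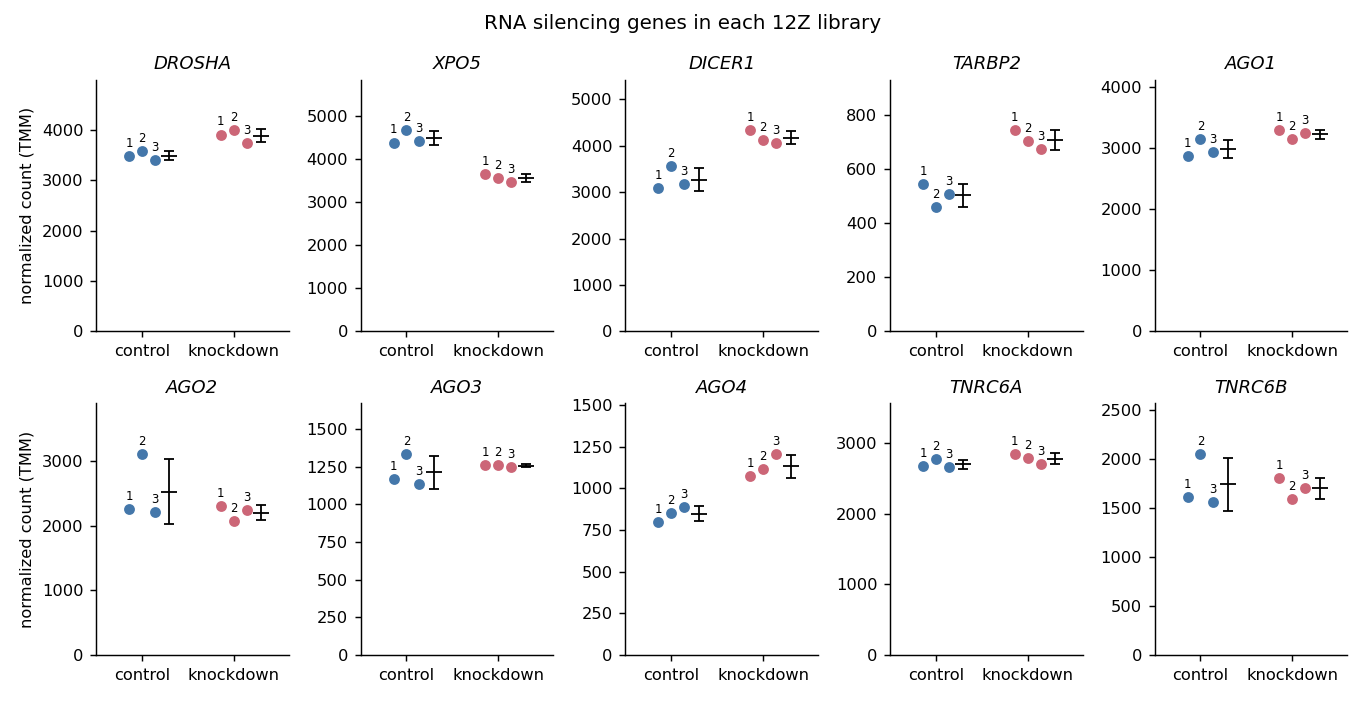
Normalized counts (TMM, vertical axes from 0) of the 10 RNA silencing genes in each of the 3 control (blue) and 3 knockdown (red) libraries, numbered by replicate, with mean ± SD as black bars. DICER1, TARBP2, AGO4 and DROSHA lie higher and XPO5 lower in all 3 knockdown libraries, and control replicate 2 lies above all other libraries for AGO2, AGO3 and TNRC6B.

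Per length, these genes ranged over about an order of magnitude. XPO5 was at 70.8 ± 3.88 TPM and DROSHA at 59.9 ± 2.55 TPM in the control libraries (SD, n = 3), above 81.5% and 78.3% of the genes tested. AGO1 (28.4 ± 1.93 TPM) and TNRC6A (27.9 ± 1.2 TPM) followed, and their control ranges overlapped. The same held for the next neighbours, AGO2 at 21.4 ± 4.73 TPM and DICER1 at 19.8 ± 1.92 TPM, and for TARBP2 at 16.4 ± 1.12 TPM and AGO4 at 15.2 ± 0.90 TPM. The lowest were TNRC6B at 11.7 ± 2.05 TPM and AGO3 at 7.68 ± 0.83 TPM, which was still above 35.3% of the genes tested. For comparison, the median over the genes tested was 17.3 TPM, and LINC01133 itself lay at 29.5 TPM in control and 4.78 TPM in knockdown libraries.

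The order depended on the length used. With the length of the canonical transcript alone, AGO1 moved from rank 3 to rank 6, at 17.5 TPM, and AGO2 from rank 5 to rank 7, at 13.9 TPM, with overlapping ranges. In the other direction, TARBP2 moved from rank 7 to rank 3 among the 10 genes, at 26.7 TPM, with a range that overlapped that of TNRC6A at 25.5 TPM. The annotated exons of TARBP2 add up to 4090 bases, but its canonical transcript to 1510. DICER1 has 22151 bases of exons and a canonical transcript of 10384, and moved from rank 6 to rank 5. XPO5, DROSHA, TNRC6A, AGO4, TNRC6B and AGO3 kept their ranks.

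**Figure D2:**
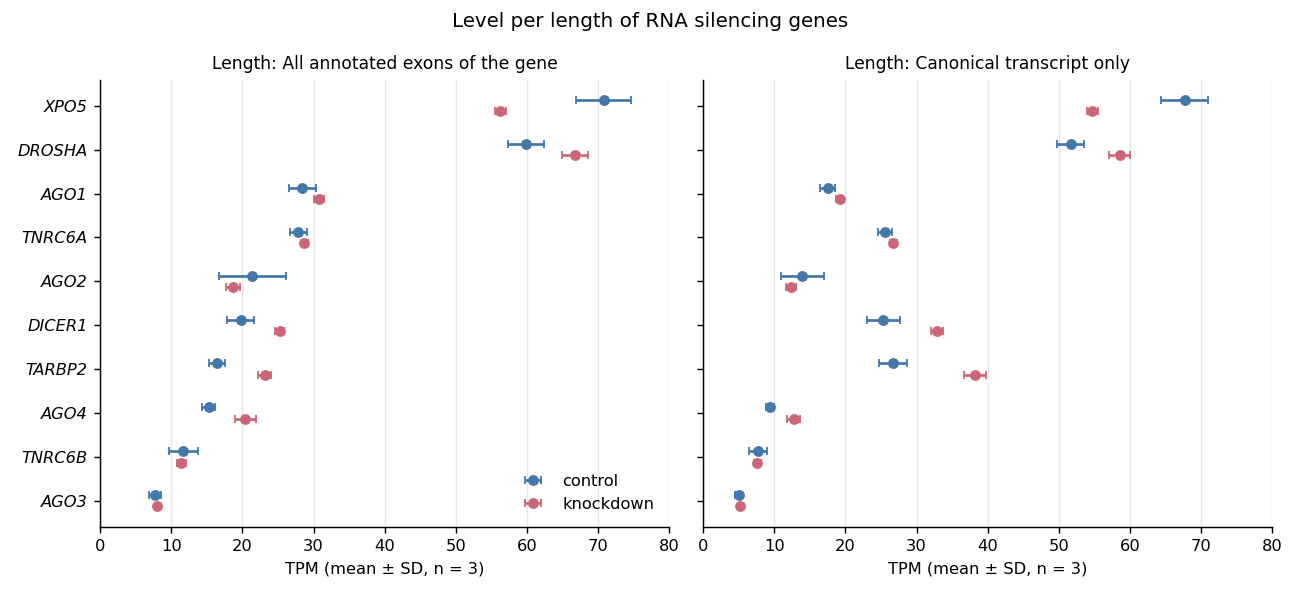
Mean ± SD level in TPM (horizontal axis, 3 libraries a group) of the 10 RNA silencing genes in control (blue) and knockdown (red) libraries, with the length of all annotated exons on the left and of the canonical transcript on the right. XPO5 and DROSHA lie highest and AGO3 lowest with both lengths, and TARBP2 moves up from 16.4 to 26.7 TPM in control libraries.

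DROSHA, the nuclear nuclease that frees the hairpin, is encoded on the minus strand of chr5:31400494-31532196. Its normalized counts were 3484, 3574 and 3394 in control and 3907, 3996 and 3741 in knockdown libraries. Each knockdown library lay above each control, with a small gap between the groups. The rise to 111% of control passed the test (log2 fold change 0.16, SE 0.040, 95% interval 0.071 to 0.24, adjusted p = 0.00523 with edgeR's quasi-likelihood test), and without control replicate 2 it was 0.17.

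Of 7 genes for microprocessor partners and other nuclear factors, 4 rose, 1 fell and 2 did not pass (71.4% passed, against 48.3% of all genes, 23.3% higher and 25.0% lower). Their median was 0.14 on the log2 scale. DGCR8, the double-stranded RNA-binding partner without which DROSHA does not process hairpins, had normalized counts of 1942, 1640 and 1936 in control and 2423, 2442 and 2508 in knockdown libraries. It rose to 133% of control without overlap between the groups (log2 fold change 0.42, SE 0.057, adjusted p = 5.08e-05 with edgeR), more than DROSHA, although this difference between the genes was not tested. Without control replicate 2, its lowest library, the log2 fold change of DGCR8 was 0.34. The RNA helicases DDX5 (log2 fold change 0.23) and DDX17 (0.15), which associate with the microprocessor, and ZC3H18 (0.14), which binds the cap-binding complex, also rose. DDX17 was at 0.09 without control replicate 2 and lost its call without knockdown replicate 3 (adjusted p = 0.0777), and ZC3H18 lost its call with DESeq2 (adjusted p = 0.0503) and without knockdown replicate 1 (adjusted p = 0.0540). The cap-binding subunit NCBP2 fell (-0.12), a call that was lost in 5 of 13 alternatives, namely DESeq2 (adjusted p = 0.0508), library size alone (-0.05, adjusted p = 0.325) and each fit that lacked the third control or either of the first 2 knockdown libraries (adjusted p from 0.115 to 0.197). Its partner NCBP1 was at -0.10 (adjusted p = 0.0511), and SRRT, which links the cap to primary miRNA processing, at 0.05 (adjusted p = 0.383).

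XPO5, the export receptor for hairpin precursors (chr6:43522334-43576038, minus strand), was the only one of the 10 genes that fell. Its normalized counts were 4385, 4675 and 4409 in control and 3647, 3569 and 3476 in knockdown libraries. The groups were well apart, with the highest knockdown library below the lowest control. XPO5 fell to 79.4% of control (log2 fold change -0.33, SE 0.040, 95% interval -0.42 to -0.25, adjusted p = 1.49e-05 with edgeR's quasi-likelihood test), and its level went from 70.8 to 56.3 TPM. With control replicate 2 left out it was -0.30. RAN, the GTPase that loads and releases export receptors, fell as well, to 82.2% of control (log2 fold change -0.28, adjusted p = 3.64e-05). In bulk RNA, fewer cells that express a gene and less RNA of it per cell cannot be told apart.

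The strand of the reads mattered for XPO5. Its exons share 348 bases with POLR1C on the opposite strand, and the count without regard to strand held only 83.2% of the stranded count. STAR assigns no read pair that falls on more than 1 gene. With the count without strand the XPO5 control level was 62.0 TPM. For the other 9 genes the count without strand was between 95.7% and 101% of the stranded one. Reads on the strand of read 1 made up 0.11% (AGO3) to 1.13% (TARBP2) of the counts.

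DICER1, the cytoplasmic nuclease (chr14:95086228-95158010, minus strand), had normalized counts of 3085, 3560 and 3166 in control and 4341, 4127 and 4065 in knockdown libraries. Even the highest control, replicate 2, lay below the lowest knockdown library. DICER1 rose to 128% of control (log2 fold change 0.35, SE 0.052, 95% interval 0.24 to 0.47, adjusted p = 8.72e-05 with edgeR's quasi-likelihood test), from 19.8 to 25.3 TPM, and by 0.42 on the log2 scale without control replicate 2.

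TARBP2, a double-stranded RNA-binding protein that stabilizes DICER1 and takes part in loading, showed the largest fitted fold change of the 10 genes (chr12:53500921-53506431, plus strand). Its normalized counts were 542, 457 and 508 in control and 743, 704 and 673 in knockdown libraries, again without overlap. The rise to 141% of control (log2 fold change 0.49, SE 0.070, 95% interval 0.34 to 0.64, adjusted p = 7.37e-05 with edgeR's quasi-likelihood test) stayed under the fold change cutoff of 1.5, although its interval reached past it. Leaving out control replicate 2, the lowest library, gave 0.43. TARBP2 shares 541 of its exon bases (13.2%) with a long non-coding RNA on the opposite strand, but its count without regard to strand was 100.4% of the stranded one.

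PRKRA, the other double-stranded RNA-binding partner of DICER1, rose to 113% of control (log2 fold change 0.18, adjusted p = 0.00367 with edgeR), with controls between 1336 and 1400 and knockdown libraries between 1498 and 1560 normalized counts. ADAR, which edits double-stranded RNA and can bind DICER1, fell to 91.4% (log2 fold change -0.13, adjusted p = 0.00688). This call of ADAR was lost with scaling by library size alone (-0.07, adjusted p = 0.111) and without knockdown replicate 1 (adjusted p = 0.0531). Of the 3 export and dicing partners listed (RAN, PRKRA and ADAR), 1 thus rose and 2 fell. Over all genes tested, 48.3% passed, 23.3% higher and 25.0% lower.

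Of the Argonautes, AGO4, AGO1 and AGO3 lie in tandem on the plus strand of chromosome 1 (chr1:35808016-36072500), with 11917 bases between AGO4 and AGO1 and 185 between AGO1 and AGO3, while AGO2 is on chromosome 8. AGO4, which binds small RNAs but is not known for strong slicing, had the largest fitted change. Its normalized counts were 799, 850 and 889 in control and 1073, 1116 and 1207 in knockdown libraries. All knockdown libraries lay above all controls. AGO4 rose to 134% of control (log2 fold change 0.42, SE 0.058, 95% interval 0.29 to 0.54, adjusted p = 5.85e-05 with edgeR's quasi-likelihood test), and the value was also 0.42 without control replicate 2.

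AGO1, the most abundant Argonaute mRNA per length, had normalized counts of 2869, 3147 and 2934 in control and 3292, 3138 and 3238 in knockdown libraries. Knockdown replicate 2 lay just below control replicate 2, so the groups overlapped. The rise to 108% of control passed the test narrowly (log2 fold change 0.11, SE 0.043, 95% interval 0.019 to 0.20, adjusted p = 0.0453 with edgeR's quasi-likelihood test). This call was lost with DESeq2 (adjusted p = 0.0797) and when any single library other than control replicate 2 was left out (adjusted p from 0.0536 to 0.152). With control replicate 2 left out it was 0.15 (adjusted p = 0.00411), and with scaling by library size alone 0.18.

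AGO2, the slicing Argonaute, was the most variable of the 10 genes among controls. Its normalized counts were 2258, 3114 and 2211 in control and 2299, 2067 and 2240 in knockdown libraries. One control, replicate 2, was high, and the other 5 libraries lay close together. The log2 fold change was -0.20 (SE 0.10, 95% interval -0.41 to 0.022), which did not pass the test (adjusted p = 0.126 with edgeR's quasi-likelihood test). It rested on control replicate 2, without which it was -0.02 (adjusted p = 0.719), and it passed at -0.28 when control replicate 3 was left out (adjusted p = 0.0413). It also passed when genes with low counts were kept in the fit, at -0.19 (adjusted p = 0.000332). The estimate was nearly the same there, but its standard error was 0.048 against 0.10 in the reported fit. Why the standard error was smaller was not tested.

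AGO3, the lowest Argonaute, had normalized counts of 1171, 1337 and 1134 in control and 1264, 1264 and 1248 in knockdown libraries. The knockdown libraries lay within the range of the controls, so that no change was detectable (log2 fold change 0.05, SE 0.058, 95% interval -0.070 to 0.18, adjusted p = 0.460 with edgeR's quasi-likelihood test). Leaving out control replicate 2 gave 0.12, which passed (adjusted p = 0.0437).

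The composition of the Argonaute mRNAs was described as each gene's share of the summed TPM of AGO1 to AGO4. AGO1 made up 39.2% ± 1.5 in control and 39.5% ± 0.66 in knockdown libraries (SD, n = 3), and AGO3 10.6% ± 0.29 and 10.3% ± 0.33. AGO2 took 27.9%, 32.8% and 26.7% among controls and 24.8%, 23.1% and 23.8% after knockdown. AGO4 took 21.1%, 19.1% and 23.0% among controls and 24.8%, 26.6% and 27.4% after knockdown. AGO2 thus ranked above AGO4 in each control, while in knockdown libraries 2 and 3 AGO4 ranked above AGO2 and in library 1 both stood at 24.8%. The sum over the 4 genes was 72.7 ± 7.84 TPM in control and 77.7 ± 2.40 TPM in knockdown libraries, with overlapping ranges. With the canonical transcript length, the sums were 45.7 ± 4.74 and 49.5 ± 1.66 TPM. These shares and sums were not tested.

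**Figure D3:**
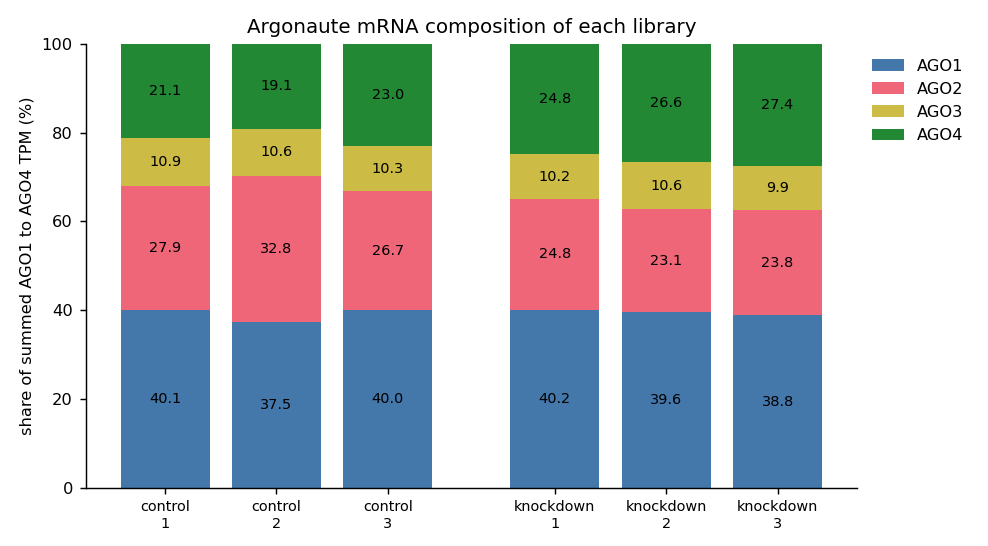
Share of AGO1, AGO2, AGO3 and AGO4 (vertical axis, percent of their summed TPM) in each of the 3 control and 3 knockdown libraries. AGO4 takes 19.1% to 23.0% in control and 24.8% to 27.4% in knockdown libraries, while AGO2 goes from 26.7% to 32.8% down to 23.1% to 24.8%.

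TNRC6A and TNRC6B, the scaffolds that bind Argonautes and recruit the deadenylases, did not pass the test. TNRC6A (chr16:24610209-24827632, plus strand) had normalized counts of 2672, 2777 and 2655 in control and 2849, 2785 and 2698 in knockdown libraries. The groups overlapped and the whole interval was narrow (log2 fold change 0.04, SE 0.039, 95% interval -0.044 to 0.13, adjusted p = 0.413 with edgeR's quasi-likelihood test), and the value was 0.06 without control replicate 2. TNRC6B (chr22:40044817-40335808, plus strand) had counts of 1613, 2057 and 1564 in control and 1810, 1594 and 1703 in knockdown libraries. As for AGO2, control replicate 2 was the highest library. The log2 fold change of TNRC6B was -0.03 (SE 0.085, 95% interval -0.21 to 0.15, adjusted p = 0.786), and it turned to 0.10 without control replicate 2 (adjusted p = 0.133).

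TNRC6C, the remaining paralog, is the least abundant of the family. Its normalized counts were 281, 301 and 265 in control and 190, 193 and 219 in knockdown libraries, without overlap. It fell to 70.9% of control (log2 fold change -0.50, SE 0.094, adjusted p = 0.000670 with edgeR), and the log2 value was -0.46 without control replicate 2. Its share of the summed TNRC6 TPM went from 7.59% ± 0.16 to 5.46% ± 0.53 (SD, n = 3), while TNRC6A made up 65.2% ± 2.43 and 67.7% ± 1.22. The sum over the 3 paralogs was 42.8 ± 3.5 TPM in control and 42.4 ± 0.82 TPM in knockdown libraries.

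Of 7 genes that comprised TNRC6C and proteins associated with the silencing complex, 5 fell and 2 did not pass (71.4% passed, against 48.3% of all genes, 25.0% lower). IPO8, an import receptor that binds Argonautes, had normalized counts from 7343 to 7962 in control and from 5316 to 5578 in knockdown libraries, and fell to 71.3% of control (log2 fold change -0.49, SE 0.040, adjusted p = 5.15e-07 with edgeR). The RNA-binding protein FMR1 (log2 fold change -0.22), the nuclease SND1 (-0.14) and TSN (-0.14), a subunit of the complex that removes nicked passenger strands, also fell. With scaling by library size alone SND1 and TSN were both at -0.08 and did not pass (adjusted p = 0.0663 and 0.0888). TSNAX, the catalytic partner of TSN, was at 0.00 (adjusted p = 0.984) and the helicase MOV10 at -0.04 (adjusted p = 0.464). The median over the 7 genes was -0.14, against 0.00 over all genes tested.

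Heat shock chaperones and their partners hold Argonautes open for loading. Of 13 such genes, 10 fell and 3 did not pass (76.9% passed, against 48.3% of all genes, of which 25.0% were lower), and the median of their log2 fold changes was -0.25, against 0.00 over all genes. The most abundant were HSP90AB1 at 2965 TPM, HSP90AA1 at 1769 TPM and HSPA8 at 1637 TPM in control libraries, and they fell to 78.7%, 84.3% and 86.0% of control. AHSA1, which activates HSP90, and the HSP70 partner DNAJA1 changed most, at log2 fold changes of -0.43 (adjusted p = 6.93e-07 with edgeR) and -0.36 (adjusted p = 1.50e-06). Those that did not pass were FKBP4 (-0.11, adjusted p = 0.0509), FKBP5 (-0.04, adjusted p = 0.579) and CDC37 (0.01, adjusted p = 0.818). These chaperones serve many client proteins besides Argonautes.

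Of 25 deadenylation and decapping genes, which act downstream of TNRC6 proteins, 8 rose, 4 fell and 13 did not pass, and the median log2 fold change was 0.02. At 48.0%, the share that passed was about that of all genes. The deadenylase PAN2 rose most (log2 fold change 0.44, adjusted p = 0.00155 with edgeR), with 608, 473 and 655 normalized counts in control and 767, 764 and 827 in knockdown libraries. The 5′ exonuclease XRN1 fell most (-0.35, adjusted p = 0.000782), with 2503, 3114 and 2716 in control and 2218, 2067 and 2263 in knockdown libraries. CNOT1, the scaffold of the main deadenylase complex, was at -0.02 (adjusted p = 0.731), the poly-A binding protein PABPC1 rose by 0.17 (adjusted p = 0.00114) and the decapping factor PATL1 fell by 0.17 (adjusted p = 0.00254), or by 0.11 with scaling by library size alone.

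**Figure D4:**
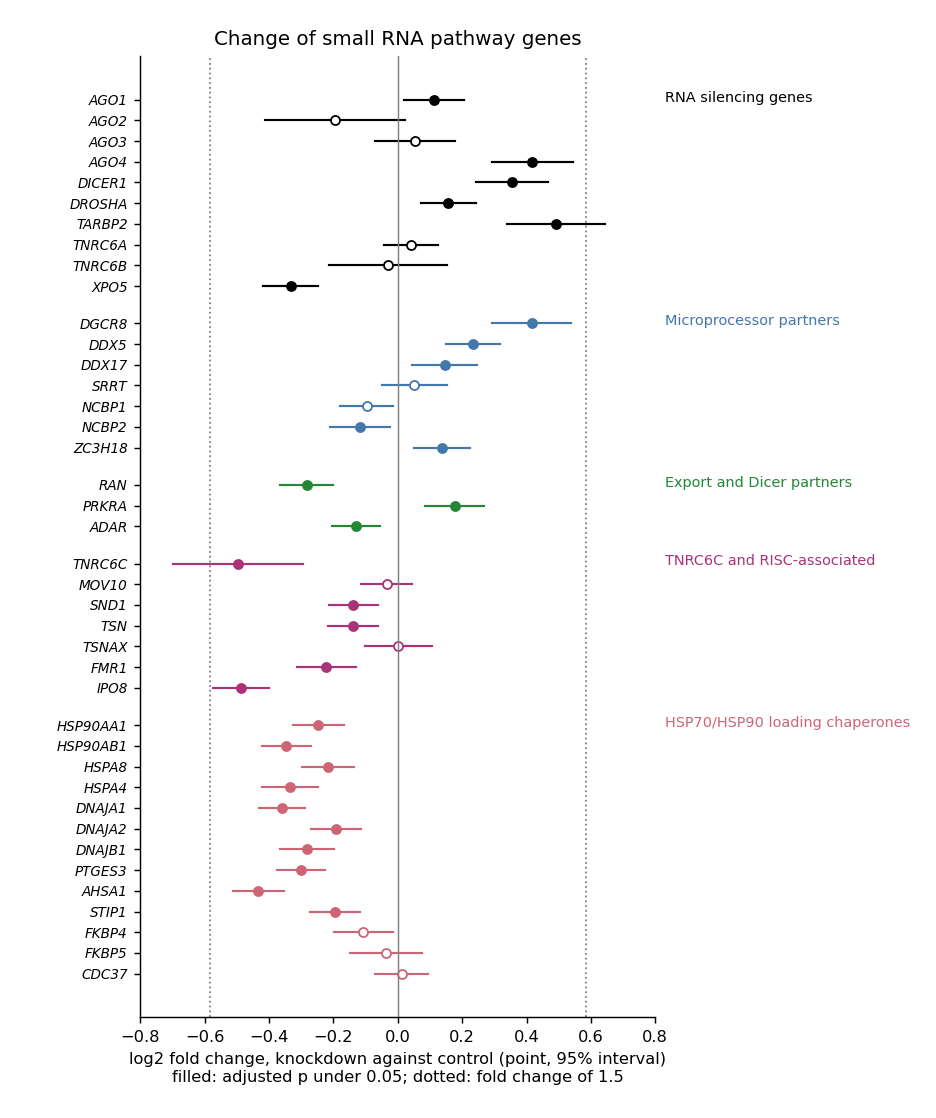
Log2 fold change of knockdown against control (horizontal axis) with its 95% interval for the 10 RNA silencing genes (black) and 4 further groups of small RNA pathway genes. Filled points had an adjusted p under 0.05 and dotted lines mark a fold change of 1.5, which no point passes. Points of the chaperones lie at or left of 0 except CDC37 at 0.01.

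Among 10 genes for tailing and turnover of miRNAs, 8 had enough counts to be tested, of which 2 rose and 6 did not pass (25.0% passed, against 48.3% of all genes, 23.3% higher). ZSWIM8, the ubiquitin ligase adaptor that degrades Argonautes bound to certain targets, rose to 128% of control (log2 fold change 0.35, adjusted p = 9.22e-06 with edgeR), with 2046, 1916 and 1954 normalized counts in control and 2506, 2518 and 2523 in knockdown libraries. DIS3L2, which degrades uridylated precursors, rose to 120% (0.26, adjusted p = 0.000626). The uridylyl transferases TUT4 (0.09, adjusted p = 0.106) and TUT7 (0.03, adjusted p = 0.582), the polymerase TENT2 (0.08, adjusted p = 0.102), the trimming enzyme PARN (-0.04, adjusted p = 0.505), the exonuclease XRN2 (-0.06, adjusted p = 0.184) and the let-7 blocker LIN28A (-0.13, adjusted p = 0.540) did not pass. LIN28A had between 70 and 100 counts in a library, LIN28B 0 in each and TRIM71 at most 5. The germline Argonaute relatives were not detected or close to it, with 0 counts of PIWIL1 and PIWIL3 in each library and at most 7 of PIWIL2 and PIWIL4.

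The poly-A libraries do not show mature miRNAs, but they show the host transcripts of some. Of 84 annotated miRNA host genes (symbols from MIR to HG), 24 were tested, of which 7 rose, 3 fell and 14 did not pass. The share that passed was 41.7%, near the 48.3% of all genes, and 5 were DE, against 11.7% of all genes. MIR503HG had 556, 315 and 470 normalized counts in control and 779, 812 and 769 in knockdown libraries, a rise to 175% (log2 fold change 0.80, adjusted p = 0.000238 with edgeR). MIR34AHG had 30.3, 15.8 and 17.6 in control and 45.8, 41.8 and 53.3 in knockdown libraries (1.11, adjusted p = 0.00224), at only 14 to 54 counts. MIR31HG fell to 54.5% (-0.88, adjusted p = 9.62e-06), from 569, 617 and 462 to 294, 317 and 286. MIR4435-2HG (-0.13, adjusted p = 0.0227) and MIR600HG (-0.37, adjusted p = 0.0156) also fell, but MIR4435-2HG lost its call in 5 of 13 alternatives, with library size alone (-0.07, adjusted p = 0.190) and without control replicate 2 or any 1 knockdown library (adjusted p from 0.0591 to 0.0887), and MIR600HG without knockdown replicate 2 (-0.24, adjusted p = 0.0803). Of the miRNAs encoded within the 3 of these named hosts that were DE, miR-503-3p and miR-34a-3p are not shown. The 5p miRNAs are shown for their seeds (capitals, positions 2 to 8), which differ from each other and from both seeds of the siRNA.
miR-503-5p: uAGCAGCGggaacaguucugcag
miR-34a-5p: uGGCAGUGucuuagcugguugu
miR-31-5p: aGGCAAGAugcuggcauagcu
In GRCh38.p14 they lie, all on the minus strand, at chrX:134546371-134546393, chr1:9151735-9151756 and chr9:21512158-21512178.

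The 3′ UTRs of the 10 genes were searched for matches to the siRNA seeds, since a small RNA can also lower mRNAs that pair with its seed alone. A match to the guide seed reads AGAATGG in the mRNA and one to the passenger seed GTAACTT, and the transcript strand alone was searched, in the longest annotated 3′ UTR of each gene. Of 12518 tested genes with a 3′ UTR, 18.6% held AGAATGG and 14.5% GTAACTT. The 10 genes have long 3′ UTRs, with a median of 4277.5 bases against 1554 over the genes searched, so the share among genes of like length is the closer comparison. AGAATGG occurred in AGO1 (2 matches), AGO3 (2), TNRC6B (1) and XPO5 (1), and not in the searched windows of AGO2, AGO4, DICER1, DROSHA, TARBP2 and TNRC6A. Among genes with a 3′ UTR of similar length, 66.2% held it at the length of AGO1, 82.9% at that of AGO3, 74.6% at that of TNRC6B and 15.1% at that of XPO5. GTAACTT occurred in AGO1 (1 match), AGO3 (6), DICER1 (1) and TNRC6B (1), and among genes of like length in 53.6%, 56.1%, 28.9% and 57.1%, in that order.

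Matches in a gene that fell and in 2 genes that rose are shown with 8 bases on each side, with the match in capitals.
XPO5, guide seed: acctgtacAGAATGGtaactaag
AGO1, guide seed, first: tgaagaacAGAATGGagggctct
AGO1, guide seed, second: atgagaagAGAATGGagagaatt
DICER1, passenger seed: gtatagttGTAACTTattacagg
They lie at chr6:43523517-43523539 (minus strand), chr1:35921821-35921843 and chr1:35923008-35923030 (plus strand) and chr14:95089691-95089713 (minus strand) of GRCh38, all in 3′ UTRs. Both matches of AGO1 and the match of DICER1 are followed by an A and make 8-base matches, while that of XPO5 is not. XPO5, with 1 guide match, fell by 0.33 on the log2 scale. AGO1, with 2, was at 0.11, a call lost in 8 of 13 alternatives. AGO3, with matches to both seeds, was at 0.05. Whether any of these matches is bound or has a part in these values was not tested.

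**Figure D5:**
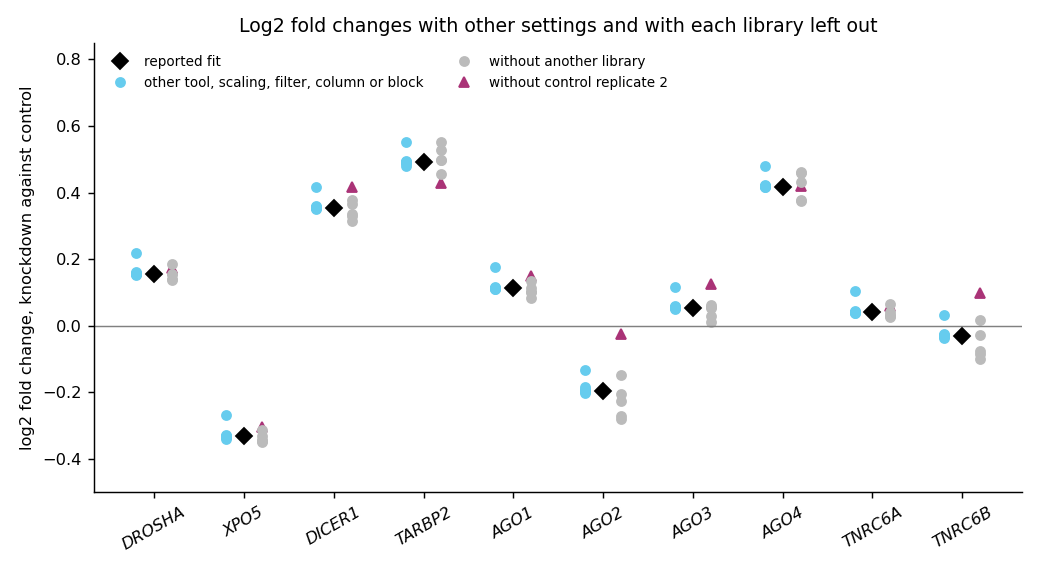
Log2 fold change of each of the 10 RNA silencing genes (vertical axis) in the reported fit (diamond), with another tool, scaling, filter, count column or replicate block (blue), and after leaving out any single library (grey, purple triangle for control replicate 2). DICER1, TARBP2, AGO4 and DROSHA stay above 0 and XPO5 below 0 throughout, while leaving out control replicate 2 brings AGO2 to -0.02 and TNRC6B to 0.10.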

How the data were processed

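Poly-A RNA of 12Z cells was sequenced in 3 control and 3 LINC01133 knockdown libraries. The authors aligned the reads with STAR 2.7.6a to GRCh38.p13 with GENCODE v36, kept reads mapping to a single place, and deposited the raw read-pair counts of each gene. SAMtools 1.10 is also named in the submitters' processing notes. Of the strand-specific columns, the one opposite to read 1 was used, which held 94.0% of stranded counts. Read pairs that matched no annotated exon on the counted strand stayed out of library sizes, as did those on more than 1 gene. Each of these shares lay between 3.88% and 5.22% of uniquely mapped read pairs. Gene names and exon lengths came from GENCODE v44, matched by Ensembl ID (60419 of 60660 genes), siRNA sequences from the study's supplement and miRNAs from RefSeq (GRCh38.p14).

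Genes were kept by filterByExpr (minimum count 10), normalized by TMM and compared by edgeR's quasi-likelihood test (edgeR 4.0.16, R 4.3.3), in a model of group alone, with p-values adjusted over the 15155 genes tested by the Benjamini-Hochberg method. Standard errors and 95% intervals came from the same fit. On simulated data over 14981 genes, all 100 genes changed by 1 on the log2 scale and 91 of 100 changed by 0.4 were recovered, 11 unchanged genes were called, and 95.1% of intervals held the true value. The changed genes were picked among those with higher counts, no others were changed and no library stood apart. The data differ in these respects, so these rates need not hold for them. TPM values and shares were computed here and not tested. Errors are SDs over 3 libraries in each group or standard errors of the fit. The p-values set the group difference against the spread between these libraries, estimated with information shared over genes. The study calls these libraries biological replicates. Alternatives were DESeq2 1.42.0, other scalings and filters, the unstranded column, a replicate block, the canonical length and each library left out.

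The genes, the further gene lists and the naming rule were chosen with earlier results of these data known. All genes of lists of 10 or fewer were named, and for longer lists the 3 most abundant in control libraries and the 2 with the largest change among those that passed. The 3 chaperones that did not pass and the examples of cell type markers were named after their values were seen.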

Additional observations from a re-analysis of the deposited data

Results flagged for a closer look

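A signal lay in data outside the comparison, in the read pairs that STAR assigned to no gene. The share of uniquely mapped read pairs outside annotated genes was 4.38% to 4.74% in control and 4.81% to 5.22% in knockdown libraries (mean of the knockdown libraries 5.02%). The share on more than 1 gene was 3.88% to 4.12% in control and 4.22% to 4.23% in knockdown libraries (mean of the knockdown libraries 4.22%). Both shares lay higher in each knockdown library, neither was tested, and their part in the values of the RNA silencing genes was not tested.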

How the results depend on the processing

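Over 13 alternatives, AGO4, DICER1, DROSHA, TARBP2 and XPO5 kept their direction and their side of the threshold in each. AGO1 lost its call in 8 of 13, AGO2 passed in 2 and AGO3 and TNRC6A in 1 each, TNRC6A with scaling by library size alone (log2 fold change 0.10). Of the further genes that had not passed, NCBP1 passed in 4 alternatives, TUT4 in 2 and TENT2 in 1. The number of the 10 genes that passed stayed between 5 and 7, none was DE in any alternative, and all genes with an adjusted p under 0.05 numbered 6103 to 7640. Library size alone moved the median log2 fold change of all genes to 0.07. It turned TNRC6B to 0.032, MOV10 to 0.027, CNOT1 to 0.043, PARN to 0.021 and XRN2 to 0.0034. TSNAX turned to -0.0025 with DESeq2 and to -0.00052 with the unstranded column. With a library left out, the sign also turned for genes that had not passed: TNRC6B ranged from -0.10 to 0.099, TSNAX from -0.035 to 0.032, CNOT1 from -0.054 to 0.029, PARN from -0.076 to 0.010 and TUT7 from -0.012 to 0.084, and SRRT went as low as -0.0012.

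With the replicate number as a block, 5 of the 10 genes passed (AGO1 lost its call) and 7251 genes in all. Deviations of same-numbered samples correlated at -0.056, -0.0013 and 0.12 over 11178 genes, and those of differently numbered samples at -0.11 to 0.13. So few samples can neither show nor exclude a pairing by number.

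With the canonical transcript length, control levels were 17.5 (AGO1), 13.9 (AGO2), 4.96 (AGO3), 9.34 (AGO4), 25.3 (DICER1), 51.7 (DROSHA), 26.7 (TARBP2), 25.5 (TNRC6A) and 7.67 TPM (TNRC6B), and the shares of TNRC6A, TNRC6B and TNRC6C were 72.3%, 21.6% and 6.17%. With the unstranded column, DROSHA was at 63.1, TNRC6A at 29.5 and XPO5 at 62.0 TPM, and the share of AGO3 was 10.1%.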
